A study of Mus musculus with 2 samples.

Results

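The 10 mouse genes of MHC class II antigen presentation described here were H2-Aa, H2-Ab1, H2-Eb1, Cd74, H2-DMa, H2-DMb1, H2-DMb2, H2-Oa, H2-Ob and Ciita. They were chosen by name as the chains, chaperone, peptide editors and transactivator of the pathway, and all 10 were found among the 32285 gene IDs of both single-cell matrices. Colon lamina propria cells, labelled cd11b+ for the myeloid integrin encoded by Itgam, were profiled in 2 libraries with 1 library per group, titled Runx3_fl and Runx3. The study compared RUNX3 fl/fl-Lyz2-Cre mice, in which the Lyz2 promoter drives Cre in myeloid cells, with RUNX3 fl/fl littermates, so floxed Runx3 alleles were common to both groups. The cells were described as pooled from male mice 8 weeks of age (n = 6), without stating whether 6 is the number per library. Animals could not be told apart within a library. Cre is named in neither title, so the libraries go by their labels. With 1 library per group no difference between libraries has a replicate check, and no test was run.

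Class II molecules are cell surface pairs of an alpha and a beta chain that show peptides from engulfed material to CD4+ T cells. New pairs bind the invariant chain, the product of Cd74, which blocks the groove until lysosomal proteases cut it back. H2-M then exchanges the remaining fragment for other peptides, and H2-O restrains H2-M. The transactivator CIITA, encoded by Ciita, switches the whole set on together with factors that sit on X and Y box sequences upstream of these genes. In the gut lamina propria, dendritic cells, macrophages and B cells are known as class II-bearing cells, whereas mouse T cells and neutrophils usually carry little of them.

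On GRCm38, 8 of the 10 members lay on chromosome 17 within 224 kb, from 34092340 to 34316674. In the GENCODE annotation H2-Oa was at chr17:34092340-34095234, H2-DMa at chr17:34119541-34139101, H2-DMb2 at chr17:34143307-34151555 and H2-DMb1 at chr17:34153072-34160230. H2-Ob was at chr17:34238903-34254414, H2-Ab1 at chr17:34257689-34269419, H2-Eb1 at chr17:34305867-34316674, and H2-Aa, the one of the 8 on the minus strand, at chr17:34282744-34287823. Ciita lay at chr16:10480059-10528418. RefSeq promoter windows on GRCm38.p6, 250 bases before to 50 after a start site, were matched by symbol and searched for 7 members. The Y box core TGATTGG, searched on both strands, was in the windows of 6 of these genes, against 7.82% of all 32851 windows. The X box core AACNNNTGA stood 10 to 30 bases before it on the same strand in 4 genes, against 0.0639% of all windows. Both sets of letters were chosen after these windows had been read, so the counts are a description. The stretches that carry the motifs are shown because they are the shared element of genes whose levels are followed below, 5′ to 3′ along each gene, with the matched letters in capitals.

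H2-Aa (chr17:34287857-34287923, minus strand): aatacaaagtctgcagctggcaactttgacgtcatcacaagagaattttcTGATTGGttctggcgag
H2-Eb1 (chr17:34305756-34305822, plus strand): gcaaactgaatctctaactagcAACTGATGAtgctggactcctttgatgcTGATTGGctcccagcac
H2-DMb1 (chr17:34153078-34153144, plus strand): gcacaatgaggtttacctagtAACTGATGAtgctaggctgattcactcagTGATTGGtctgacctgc
H2-DMb2 (chr17:34145107-34145173, plus strand): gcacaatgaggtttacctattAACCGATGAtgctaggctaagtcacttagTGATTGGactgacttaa
H2-Ob (chr17:34238796-34238862, plus strand): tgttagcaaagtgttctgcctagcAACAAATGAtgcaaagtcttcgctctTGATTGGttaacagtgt
H2-Oa (chr17:34092284-34092350, plus strand): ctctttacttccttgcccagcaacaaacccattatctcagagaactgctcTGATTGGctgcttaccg

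The spacing was narrow: 17 bases lay between the matches in H2-Ob, 19 in H2-Eb1 and 20 in both H2-DMb1 and H2-DMb2. The paired genes H2-DMb1 and H2-DMb2 were identical at 58 of the 67 bases shown. H2-Aa and H2-Oa held the Y box letters without the X box letters, and neither was found in the windows of H2-DMa. Only exact letters and spacing were searched, so a missing match does not show that a gene lacks the element. H2-Ab1 and Ciita were not among the windows, and Cd74 was left out of the search by choice.

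The library labelled Runx3_fl held 146204416 UMIs (unique molecular identifiers, each counting a captured RNA molecule once) in 12968 cells, and the library labelled Runx3 held 75478164 UMIs in 8953 cells. Cells with 200 to 6000 detected genes and at most 15% mitochondrial UMIs were kept, 11885 and 8167 cells, with medians of 9573 and 5731 UMIs. In this text a pair of values is always given in the order Runx3_fl, Runx3. The libraries went against their description in several ways. An Itgam UMI was present in 44.6% and 38.2% of kept cells, and many T, B and NK cells were present. A UMI of Xist, an RNA of female cells, was in 29.9% and 0.122% of cells. Apart from these points, Runx3 itself was at 147 and 246 CPM in macrophages, the higher value being that of the library labelled Runx3. These are 3′ counts and Cre is named in neither title, so deletion of Runx3 cannot be read from them. Some transcripts of other lineages were more widespread in the library labelled Runx3. S100a8, a neutrophil gene, was detected in 2.01% and 51.4% of B cells and in 6.25% and 60.7% of macrophages. Others were not: the 8 NK markers summed to 142 and 71.6 CPM in macrophages and 175 and 108 CPM in monocytes, 7 of 8 being lower in the library labelled Runx3 in each class. The libraries shared 37 barcode strings.

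Members were followed in 7 classes. A cell was placed in the lineage with the largest share of its markers detected, and then needed at least 1 UMI of the gate gene of its class. The gates were Xcr1 for type 1 conventional dendritic cells (cDC1), Cd209a for type 2 (cDC2), Ly6c2 for monocytes, Csf1r with C1qa for macrophages, Cd79a for B cells, Csf3r for neutrophils and Cd3e for T cells. The cDC1, cDC2, monocyte and macrophage lists were taken as 1 lineage, the mononuclear phagocytes. Within it, dendritic cells with a Ly6c2 UMI were left out, as were cells passing more than 1 of the cDC1, cDC2 and macrophage gates. Monocytes passed none of those gates, and macrophages could carry Ly6c2. This gave 130 and 12 cDC1, 116 and 43 cDC2, 1137 and 1638 monocytes, 496 and 733 macrophages, 149 and 1356 B cells, 766 and 873 neutrophils and 3151 and 475 T cells. Some markers other than the gates are given for description. They were in the lists that set the lineage, so their detection is no independent check of the classes. Clec9a was in 69.2% and 50% of cDC1, Clec10a in 66.4% and 51.2% of cDC2, Ccr2 in 75.5% and 64.5% of monocytes, C1qb in 90.7% and 82.9% of macrophages and Ms4a1 in 80.5% and 75.3% of B cells. Mrc1, of the same macrophage list, was in only 103 of 496 and 243 of 733 macrophages. Ly6c2 was also detected in 76.6% and 88.5% of the macrophages, so this class is not a Ly6C-negative one. Levels are UMIs of a gene per 1000000 UMIs of all genes in the class (CPM), with 95% Poisson intervals that cover counting error only. Counts were taken at the 3′ end and no level of a gene is ranked against that of another gene.

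The I-A and I-E chains, which form the peptide groove, were highest in dendritic cells and lowest in T cells in both libraries. H2-Aa, the alpha chain of I-A, was at 6535 CPM (6409 to 6663) in cDC2, 5349.5 CPM (5262 to 5438) in cDC1, 5216 CPM (5161 to 5271) in macrophages and 4425 CPM (4389.8 to 4459.6) in monocytes of the library labelled Runx3_fl. It fell off to 2168 CPM (2082 to 2257) in B cells, 1298 CPM (1260.2 to 1337) in neutrophils and 431 CPM (425 to 437) in T cells of that library. In the library labelled Runx3 H2-Aa was at 6477 CPM (6121 to 6848) in cDC1, 5492 CPM (5289 to 5701) in cDC2, 3629 CPM (3590.3 to 3669) in macrophages and 2866 CPM (2836 to 2896) in monocytes. B cells there had 2678 CPM, neutrophils 1527 CPM and T cells 1000.5 CPM. The order was thus dendritic cells, macrophages, monocytes, B cells, neutrophils and T cells in each library, with cDC2 ahead of cDC1 in the first and cDC1 ahead in the second. Only cDC1 and macrophages of the library labelled Runx3_fl had overlapping intervals among neighbours in that order.

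H2-Ab1, the beta chain of I-A, had the same order, with 6144 CPM in cDC2 and 408 CPM in T cells at its ends in the library labelled Runx3_fl. Its ends in the library labelled Runx3 were 8044 CPM in cDC1 and 1049.7 CPM in T cells. H2-Eb1, the beta chain of I-E, ran from 5072 to 325 CPM and from 5646 to 771 CPM over the same classes. Cd74 ran from 11900.4 to 779.6 CPM and from 14197 to 2185 CPM. The invariant chain gene was the one of the 4 whose order of classes was not the same in both libraries outside dendritic cells: monocytes were above B cells in the library labelled Runx3_fl (8497 against 5703 CPM) and below them in the library labelled Runx3 (6083 against 6743 CPM). All 10 members together made up 3.10% and 3.02% of the UMIs of cDC2, 2.43% and 1.84% of those of macrophages and 1.19% and 1.45% of those of B cells. Macrophages stood 2.03-fold (2.00 to 2.07) over B cells in summed member CPM in the library labelled Runx3_fl and 1.27-fold (1.26 to 1.28) in the library labelled Runx3.

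**Figure D1:**
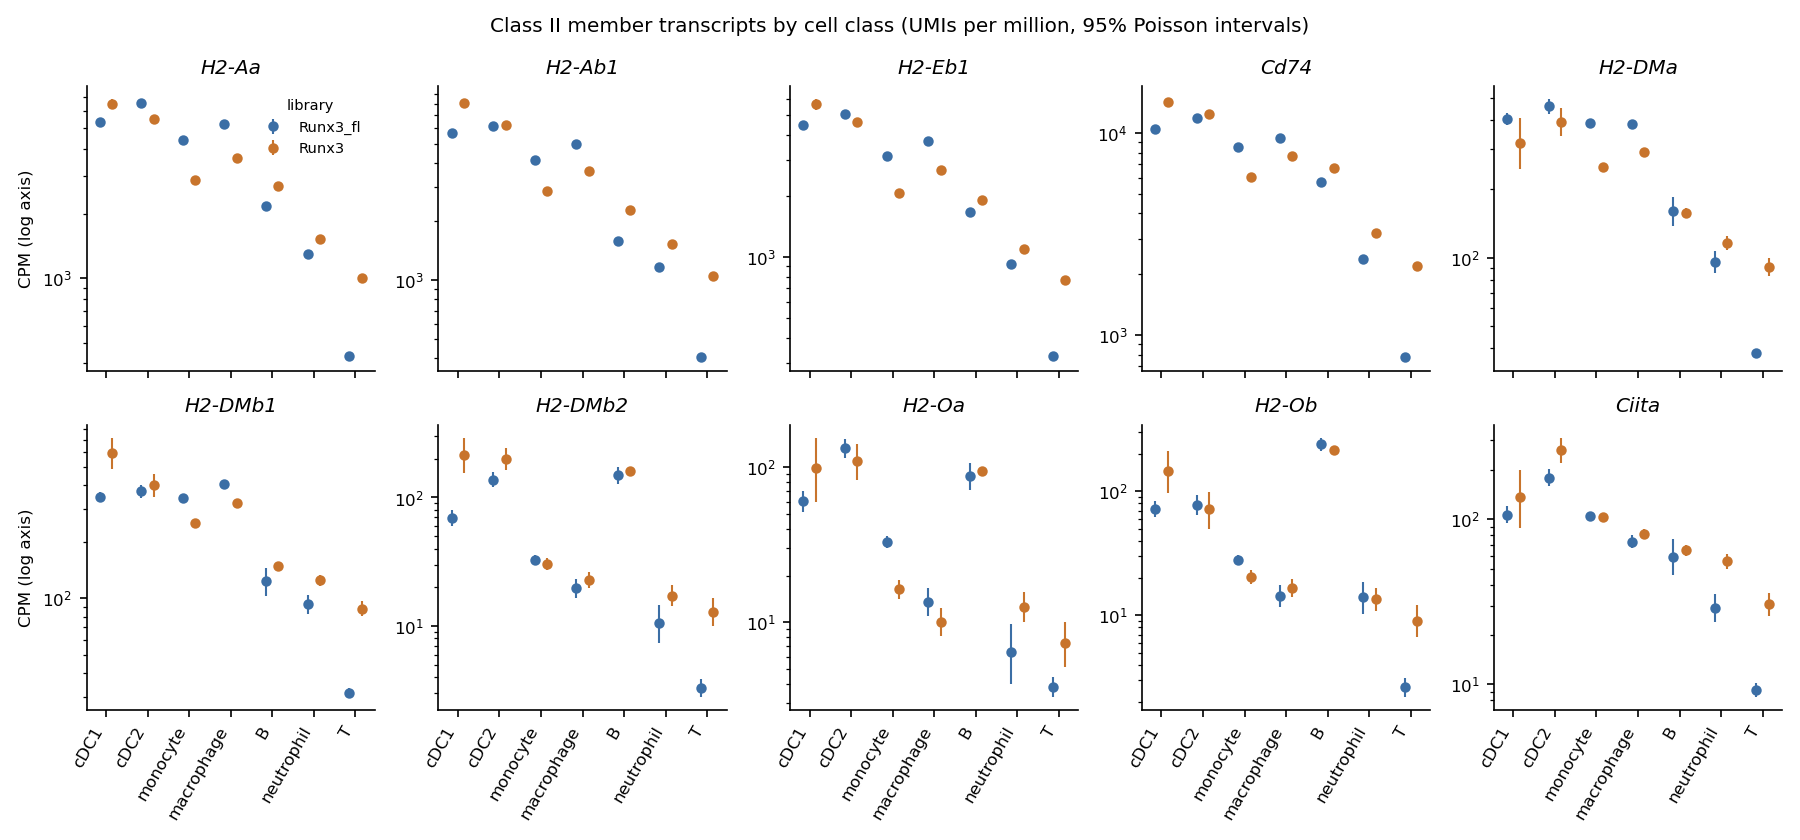
Level of each of the 10 class II genes in 7 cell classes of both libraries, as CPM on a log axis whose range differs between panels, with 95% Poisson intervals. The groove chains and Cd74 fall from dendritic cells to T cells, whereas H2-Ob is highest in B cells, at 238 and 215 CPM.

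The genes of the peptide editor H2-M divided between classes. H2-DMa, the alpha chain, was at 462 CPM (429 to 497) in cDC2, 407 CPM (383 to 432) in cDC1, 391 CPM (381 to 402) in monocytes and 385 CPM (371 to 401) in macrophages of the library labelled Runx3_fl, neighbours whose intervals overlapped. B cells were lower, at 159.8 CPM (137 to 185) and 157 CPM (149.8 to 165). H2-DMb1, a beta chain, was at 406 and 323 CPM in macrophages, 371 and 399 CPM in cDC2, 343 and 253 CPM in monocytes and 123 and 149 CPM in B cells. In cDC1 it was at 347 CPM (325 to 369.9) and 595 CPM (491 to 715), the highest class in the library labelled Runx3. Between macrophages and B cells H2-DMb2, the other beta chain, had the opposite pattern, with 149 CPM (127 to 173) and 159.6 CPM (152 to 167) in B cells against 19.7 CPM (16.5 to 23.4) and 22.9 CPM (19.9 to 26.2) in macrophages. H2-DMb2 in cDC2, 138 and 201 CPM, overlapped with B cells in both libraries. In cDC1 it was at 69.6 CPM (60 to 80.3) and 214 CPM (154 to 291), the highest value in the library labelled Runx3, with an interval that overlapped those of cDC2 and B cells.

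The share of H2-DMb2 among UMIs of the pair set the classes apart. It was 54.7% (48.9 to 60.4) and 51.7% (49.9 to 53.4) in B cells, 27.0% (24.0 to 30.3) and 33.4% (28.1 to 39.1) in cDC2 and 16.7% (14.6 to 19.0) and 26.5% (19.7 to 34.1) in cDC1, with exact binomial intervals. In monocytes it was 8.69% (7.94 to 9.49) and 10.7% (9.70 to 11.8), and in macrophages 4.63% (3.89 to 5.46) and 6.62% (5.77 to 7.54). The order B cells, cDC2, cDC1, monocytes, macrophages was the same in each library. In macrophages the summed level of the 8 B-cell markers was 12.1 and 351 CPM, so H2-DMb2 and B-cell transcripts were both higher in the library labelled Runx3, and the part of the latter in the former was not tested. The pair are similar in sequence: their first annotated transcripts were 94.4% identical over 1255 aligned bases, but 69.4% over 369 aligned bases of the last 400, where 3′ reads fall, with no identical run there longer than 23 bases. Reads from the similar upstream part could still be divided or discarded in counting.

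**Figure D2:**
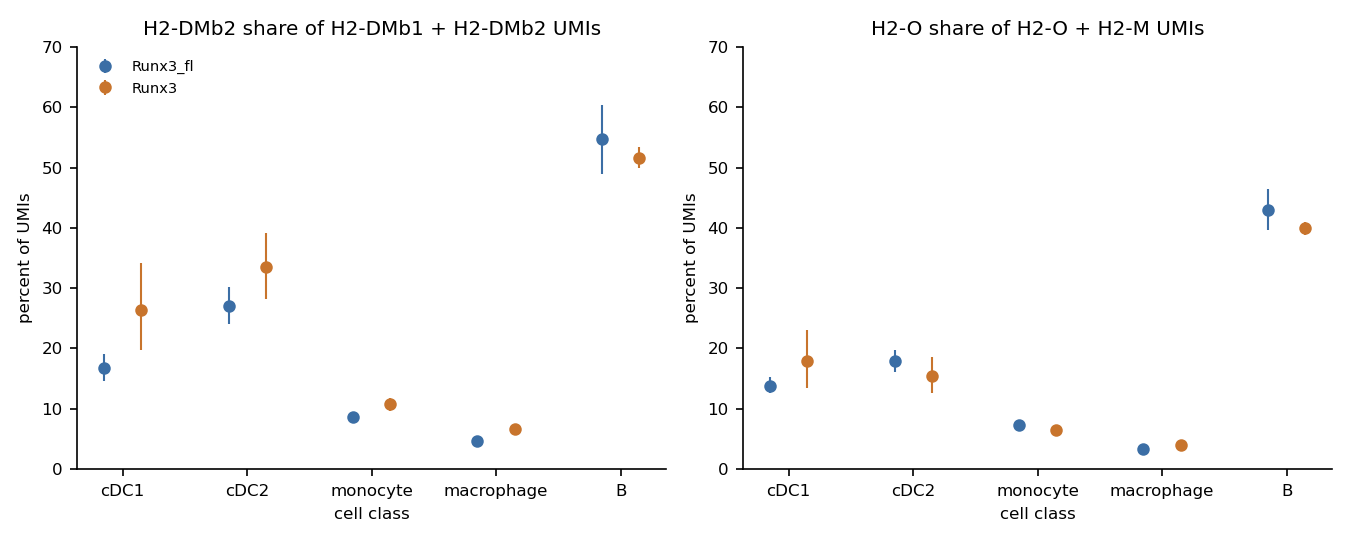
Left, UMIs of H2-DMb2 as a percentage of those of H2-DMb1 and H2-DMb2; right, UMIs of H2-Oa and H2-Ob as a percentage of those of the H2-O and H2-M genes, in 5 classes of both libraries with exact 95% binomial intervals. B cells are highest in both panels and macrophages lowest, at 4.63% and 6.62% on the left.

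The genes of H2-O, the inhibitor of H2-M, differed in pattern. H2-Ob, its beta chain, was highest in B cells in both libraries, at 238 CPM (210.2 to 269) and 215 CPM (207 to 224) respectively. In cDC1 it was at 71.8 and 146 CPM and in cDC2 at 78.1 and 71.5 CPM, with the interval of the 12 cDC1 of the library labelled Runx3 reaching that of its B cells. Macrophages had 14.3 CPM (11.6 to 17.5) and 16.7 CPM (14.1 to 19.5), overlapping with neutrophils in each library. H2-Oa, the alpha chain, was at 133 CPM (116 to 152) and 109 CPM (82.3 to 142) in cDC2, 60.7 CPM (51.7 to 70.7) and 99.2 CPM (59.7 to 155) in cDC1, 87.6 CPM (71.0 to 107) and 94.5 CPM (88.8 to 101) in B cells, and 13.6 and 10.1 CPM in macrophages. It was highest in cDC2 of the library labelled Runx3_fl, while the intervals of cDC2, cDC1 and B cells overlapped in the library labelled Runx3.

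As a share of H2-O and H2-M UMIs together, H2-O took 43.0% (39.6 to 46.5) and 39.9% (38.9 to 41.0) in B cells. Dendritic cells followed, with 17.9% and 15.4% in cDC2 and 13.9% and 17.9% in cDC1. The share was 7.39% (6.92 to 7.88) and 6.47% (5.90 to 7.08) in monocytes and 3.33% (2.87 to 3.83) and 4.04% (3.55 to 4.56) in macrophages. The share of the inhibitor among these transcripts was thus largest in B cells and smallest in macrophages of these 5 classes.

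Ciita, the transactivator gene, was highest in cDC2, at 179 CPM (158 to 201) and 262 CPM (219 to 311). Monocytes had 105 and 103 CPM, macrophages 73.2 and 81.7 CPM, B cells 59.3 and 64.9 CPM and T cells 9.24 and 30.5 CPM. Macrophages were above monocytes for H2-Aa, H2-Ab1, H2-Eb1 and Cd74 in both libraries but below them for Ciita. Across the 14 values of 7 classes in each library, the log2 profile of each member followed the mean of the other members with Pearson's r from 0.753 for H2-Ob to 0.973 for Cd74, and Ciita had 0.928. These points share libraries and total counts, and the values are descriptions.

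Detection in single cells was compared after thinning each cell to 2000 UMIs, which left out 616 and 1868 of the kept cells. An H2-Aa UMI was then present in 97.8% (96.0 to 98.9) and 93.1% (91.0 to 94.9) of macrophages, against 99.2% and 97.4% before thinning. As background, the thinned shares were 15.2% (14 to 16.5) and 37.0% (32.6 to 41.5) in T cells and 30.3% and 61.0% in neutrophils. Unthinned, T cells had 44.8% and 68.4%. The median macrophage held 13448 and 10870 UMIs, against 13579 and 8632 in T cells and 3188 and 4349 in neutrophils. Ciita was sparser, with 12.9% (10.0 to 16.1) and 14.3% (11.8 to 17.1) of thinned macrophages, 49.0% and 44.3% unthinned, against a background of 1.11% and 3.42% in T cells. H2-Ob was in 37.8% (30 to 46.2) and 35.7% (33.1 to 38.3) of thinned B cells (73.8% and 70.9% unthinned) and in 3.47% and 2.62% of macrophages, where T cells had 0.382% and 1.71% and neutrophils 1.75% and 2.16%.

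The spread between cells was wider in monocytes than in B cells, though B cells were not the narrowest class nor monocytes the widest. The summed level of H2-Aa, H2-Ab1, H2-Eb1 and Cd74 per cell ran in B cells from 6684 CPM at the 10th percentile to 15525 CPM at the 90th for the library labelled Runx3_fl, and from 7849 to 18769.6 CPM in the library labelled Runx3. In monocytes it ran from 3131 to 31993 CPM and from 1272 to 27495 CPM. In macrophages the median was 22698 and 14235 CPM and the 25th percentile 16963 and 8467 CPM. The 10th percentile was 10980.3 and 4564 CPM, while the 90th was 32764 and 31646 CPM. The gap between the libraries ran through the lower and middle part of the macrophages and was smallest at the 90th percentile.

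In T cells and in neutrophils most of the summed level came from few cells, least so in neutrophils of the library labelled Runx3. The tenth of T cells with the highest level held 92.4% and 64.3% of the UMIs of these 4 genes in the class. Those cells had a median of 5 mononuclear phagocyte markers against 2 in the other T cells, in each library, and median depths of 24569 against 12923 UMIs in the library labelled Runx3_fl and 20139.5 against 8226 in the library labelled Runx3. Class II transcripts in T cells therefore went with phagocyte transcripts and with depth. For neutrophils the tenth held 90.2% and 53.4%, with a median of 4 phagocyte markers against 1 in the other neutrophils of the library labelled Runx3_fl and 3 against 3 in the library labelled Runx3. In the library labelled Runx3 members were spread over most neutrophils, 11.9% of thinned cells having no UMI of the 4 genes against 25.4% in the library labelled Runx3_fl. For B cells the tenth held 19.9% and 24.6%. The median T cell had 148 and 739 CPM, the median neutrophil 705 and 3209 CPM and the median B cell 11429 and 12738 CPM. Without cells that held at least 3 markers of a second lineage, which kept 1237 and 229 T cells, summed member CPM in T cells dropped from 2032 to 195 and from 5244 to 868.

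**Figure D3:**
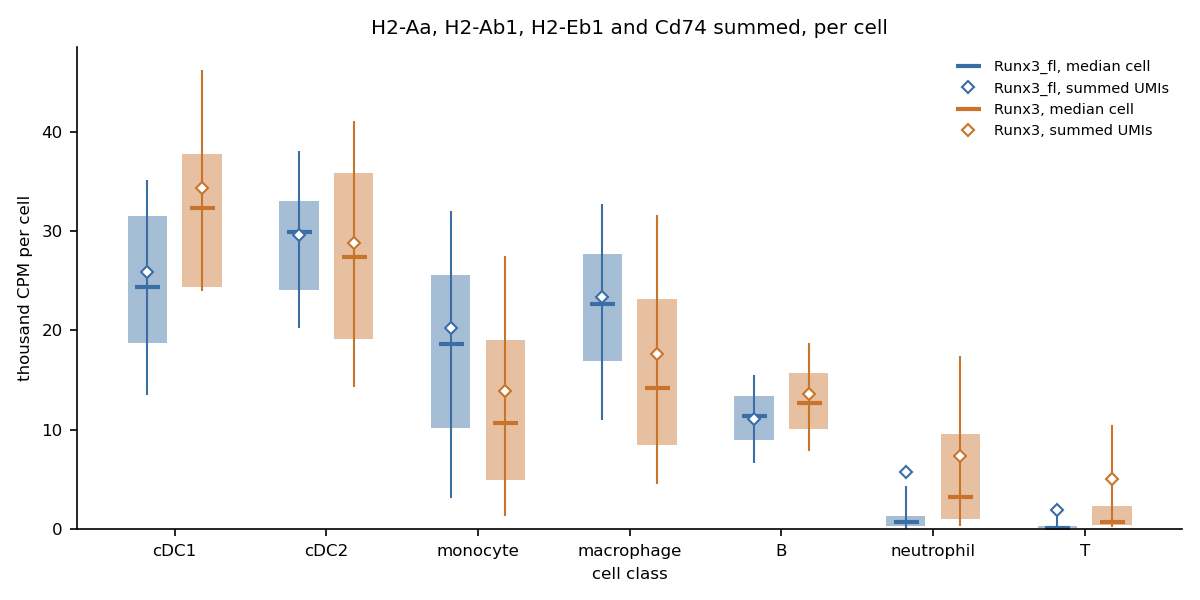
Summed level of H2-Aa, H2-Ab1, H2-Eb1 and Cd74 per cell by class and library, on an axis in units of 1000 CPM; lines run from the 10th to the 90th percentile, boxes from the 25th to the 75th, dashes are the median cell and diamonds the level from summed UMIs. In neutrophils and T cells of the library labelled Runx3_fl the diamond lies above the 90th percentile, and macrophages of the library labelled Runx3 reach lower than those of the library labelled Runx3_fl.

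Across thinned macrophages, H2-Aa and H2-Ab1 varied together, with a Pearson's r of thinned UMI counts, not log-transformed, of 0.582 over 490 cells and 0.724 over 686. H2-Aa with Cd74 had 0.533 and 0.683. In B cells the first pair had 0.163 over 148 cells and 0.372 over 1318. The cells of a class share their library, and counts at this depth are sparse for Ciita, for which no relation is given.

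The comparison between the libraries asked whether class II transcripts differed in macrophages, the cells in which the study sought an effect of Runx3. The groove chains, Cd74, H2-DMa and H2-DMb1 had lower levels in the library labelled Runx3 than in the library labelled Runx3_fl within macrophages, by less than 2-fold. H2-Ab1 was at 4993 and 3602 CPM, H2-Eb1 at 3739 and 2666 CPM and Cd74 at 9405 and 7719.5 CPM, beside the H2-Aa levels given above. Log2 ratios of CPM plus 1, the library labelled Runx3 over the library labelled Runx3_fl, were -0.52 (-0.54 to -0.50) for H2-Aa, -0.47 (-0.49 to -0.45) for H2-Ab1, -0.49 (-0.51 to -0.46) for H2-Eb1 and -0.28 (-0.30 to -0.27) for Cd74, with the counting interval of the CPM ratio in parentheses. For the editor they were -0.41 (-0.49 to -0.33) for H2-DMa and -0.33 (-0.41 to -0.25) for H2-DMb1. H2-DMb2, at 0.21, H2-Oa, at -0.40, H2-Ob, at 0.20, and Ciita, at 0.16 (-0.01 to 0.33), had intervals that reached 0. None of the 10 members passed 2-fold in either direction, a threshold passed upward by 15.8% and downward by 2.49% of the genes in this class. The ratios had a median of -0.36 over the members against 0.33 over the 12428 genes with at least 20 UMIs in the class. Relative to that median gene H2-Aa was at -0.85 and Cd74 at -0.61, and H2-DMb2, H2-Ob and Ciita turned negative, at -0.12, -0.13 and -0.17.

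The macrophage ratios for the groove chains and Cd74 stayed below 0 under each of the 10 alternatives of gating, filtering, depth and scaling, from -0.90 to -0.39 for H2-Aa and from -0.63 to -0.15 for Cd74. Markers of other lineages differed between the libraries in both directions in macrophages. The 8 neutrophil markers summed to 460.4 and 1038 CPM and the 8 B-cell markers to 12.1 and 351 CPM. Lower sums in the library labelled Runx3 were those of NK cells (142 and 71.6 CPM), innate lymphoid cells (166 and 14.3 CPM), plasmacytoid dendritic cells (431 and 341 CPM) and cDC2 (592 and 524 CPM). The 10 macrophage markers, of the class itself, summed to 3758 and 6464 CPM, all 10 of them higher in the library labelled Runx3. The part of these markers in the ratios was not tested. At least 3 markers of a second lineage were present in 32.7% and 72.6% of macrophages. Without those cells, 334 and 201 macrophages remained and H2-Aa was at 5276 and 3969 CPM.

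The lower summed level was found in macrophages with a UMI of Ly6c2, the gate gene of monocytes, and not in those without. A Ly6c2 UMI was widespread, in 5544 of 11885 and 5627 of 8167 kept cells. Of these cells 35.9% and 45.9% were mononuclear phagocytes, so the split does not by itself set monocyte-like cells apart. Among macrophages with a Ly6c2 UMI, 380 and 649 cells, the 10 members summed to 23776 and 17489 CPM. Among those without, 116 and 84 cells, they summed to 26360.3 and 27979.8 CPM. H2-Aa had a log2 ratio of -0.55 (-0.57 to -0.52) with Ly6c2 and -0.12 (-0.18 to -0.07) without, and H2-Ab1 had -0.51 (-0.54 to -0.49) and 0.02 (-0.03 to 0.08). Cd74 was lower with Ly6c2, at -0.33 (-0.35 to -0.32), and higher without, at 0.24 (0.20 to 0.28), and H2-DMa and H2-DMb1 had the same turn of sign. For the median cell the gap was smaller without Ly6c2 but not absent: without Ly6c2 it had 23052 and 20069 CPM of the groove chains and Cd74 together, and with Ly6c2 22407 and 13977 CPM. Cells without a Ly6c2 UMI were shallower, with medians of 11368 and 7388 UMIs against 14057 and 11531, and thinned to 2000 UMIs they had a median of 45.5 and 46 UMIs of these members against 44.5 and 28 with Ly6c2. This split was chosen after the values had been seen, and its difference between strata was not tested.

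**Figure D4:**
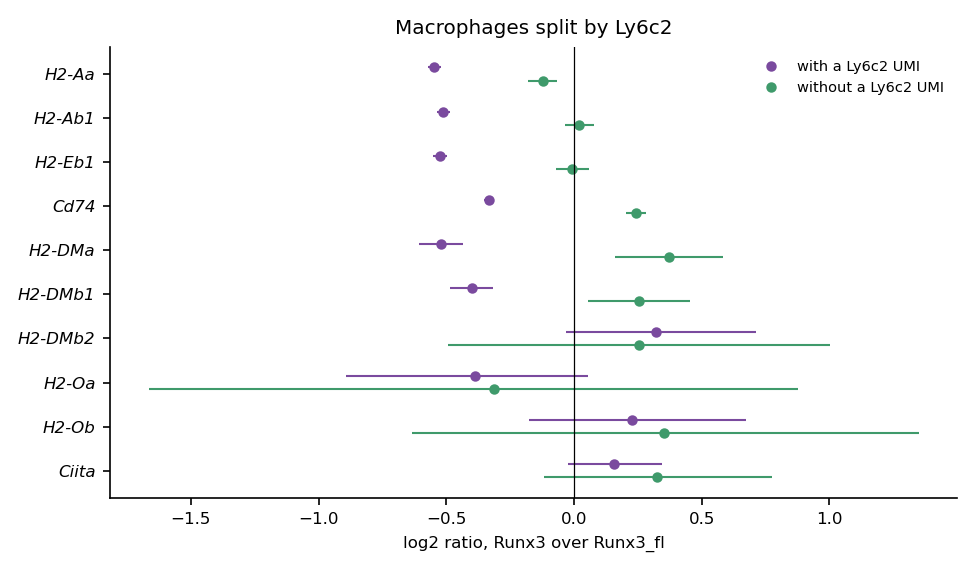
Log2 ratio of CPM plus 1, the library labelled Runx3 over the library labelled Runx3_fl, for each member in macrophages with and without a Ly6c2 UMI, with 95% counting intervals. With Ly6c2 the first 6 members lie below 0; without it H2-Aa alone of these 6 has an interval entirely below 0, and Cd74, H2-DMa and H2-DMb1 lie above 0.

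Monocytes had the same direction. All 10 ratios were below 0, from -0.98 for H2-Oa to -0.02 for Ciita, with -0.63 (-0.65 to -0.61) for H2-Aa and -0.48 (-0.50 to -0.47) for Cd74. None passed 2-fold, against 14.2% of genes upward and 1.65% downward, with a median of -0.51 over the members against 0.34 over the 13544 genes with at least 20 UMIs in the class. H2-Ab1 was at 4146 and 2869 CPM, H2-Eb1 at 3157 and 2054 CPM and H2-DMa at 391 and 249.9 CPM. The intervals of H2-DMb2 and Ciita reached 0. The 10 macrophage markers summed to 721 and 1707 CPM in this class and the 8 neutrophil markers to 495 and 1218 CPM, and their part in the ratios was not tested. The result rested on the lineage step: over all cells with a Ly6c2 UMI, of which 35.9% and 45.9% were mononuclear phagocytes and 43.2% and 6.54% T cells, the ratio of H2-Aa turned to 0.33 and that of Cd74 to 0.53. With the level of neutrophils in the same library subtracted, 6 members passed 2-fold in monocytes and 2 in macrophages.

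B cells moved the other way for the groove chains. H2-Ab1 had levels of 1581 CPM (1508 to 1657) and 2301 CPM (2273 to 2331), or 0.54 (0.47 to 0.61) as a log2 ratio. H2-Aa had 0.30 (0.24 to 0.37), H2-Eb1 0.20 (0.13 to 0.27) and Cd74 0.24 (0.20 to 0.28). H2-DMa, at -0.02, H2-DMb2, at 0.10, H2-Oa, at 0.11, H2-Ob, at -0.15, and Ciita, at 0.13, had intervals that included 0. No member passed 2-fold, against 11.5% of genes upward and 1.75% downward, with a median of 0.16 over the members against 0.09 over the 11632 genes with at least 20 UMIs in the class. The 10 macrophage markers summed to 398 and 1022 CPM in B cells, all higher in the library labelled Runx3, and their part in these ratios was not tested. Over all cells with a Cd79a UMI, of which 46.7% and 5.86% were plasma cells by their markers, all 10 members passed 2-fold upward.

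Dendritic cells that met the class rule were few in the library labelled Runx3. Cells with an Xcr1 UMI were 590 and 158, 81.7% and 66.5% of them mononuclear phagocytes, and 130 and 12 entered cDC1. Cells with a Cd209a UMI were 328 and 415, 85.1% and 63.6% of them mononuclear phagocytes, and 116 and 43 entered cDC2. The part of the Ly6c2 exclusion in these low numbers was not tested. In cDC2 no member passed 2-fold, against 12.2% of genes upward and 5.76% downward, and the ratios ran from -0.28 (-0.74 to 0.15) for H2-Oa to 0.55 (0.25 to 0.86) for Ciita, with a median of -0.05 over the members against 0.17 over the 7342 genes with at least 20 UMIs in the class. H2-Aa was at -0.25 (-0.31 to -0.19) and Cd74 at 0.07 (0.02 to 0.11), the latter turning to -0.10 relative to the median gene. H2-Ab1, at 0.03 (-0.03 to 0.08), and H2-Ob, at -0.12 (-0.70 to 0.42), had intervals that included 0. In cDC1, with 12 cells in the library labelled Runx3, H2-DMb2 (69.6 and 214 CPM, log2 ratio 1.61 (1.10 to 2.12)) and H2-Ob (71.8 and 146 CPM, 1.02 (0.40 to 1.60)) passed 2-fold upward. The other 8 ran from -0.35 (-0.75 to 0.02) for H2-DMa to 0.78 (0.49 to 1.06) for H2-DMb1, with 0.28 (0.19 to 0.36) for H2-Aa and 0.44 (0.38 to 0.50) for Cd74. Those past 2-fold were 2 of 10 members, against 9.74% of genes upward and 17.3% downward in this class. The 10 macrophage markers summed to 73.0 and 1118 CPM in cDC1, 7 of them higher in the library labelled Runx3 and Mertk at 0 in both libraries, and the 8 neutrophil markers to 330.2 and 1159.6 CPM, 7 of them higher. Their part in the cDC1 ratios was not tested. Both ratios turned slightly negative over all cells with an Xcr1 UMI, at -0.0091 and -0.093.

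T cells and neutrophils are the classes that should lack these transcripts. In T cells 9 of 10 members passed 2-fold upward, against 13.7% of genes, and none downward, against 6.5%. Their log2 ratios ran from 0.78 for H2-Oa, which did not pass, to 1.69 for H2-DMb2, with 1.21 (1.17 to 1.26) for H2-Aa and 1.49 (1.46 to 1.52) for Cd74, and a median of 1.41 over the members against 0.09 over the 14272 genes with at least 20 UMIs in the class. The 10 macrophage markers summed to 172 and 999 CPM in T cells and the 8 B-cell markers to 23.5 and 166 CPM, all of them higher in the library labelled Runx3 and none at 0, and their part in the member ratios was not tested. Each member was lower in T cells than in neutrophils of the same library, so that subtraction of the neutrophil level left nothing to compare in T cells. In neutrophils no member passed 2-fold, against 22.1% of genes upward and 5.64% downward, with a median of 0.40 over the members against 0.46 over the 11570 genes with at least 20 UMIs in the class. H2-Aa was at 0.23 and Ciita at 0.91, 9 of 10 ratios being above 0 as computed, but relative to the median gene H2-Aa, H2-Ab1, H2-Eb1, Cd74, H2-DMa, H2-DMb1 and H2-Ob were below 0 there. With cells weighted equally, 9 of 10 neutrophil ratios passed 2-fold. Ly6c2, a monocyte gene, was detected in 24.9% and 68.8% of these cells.

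**Figure D5:**
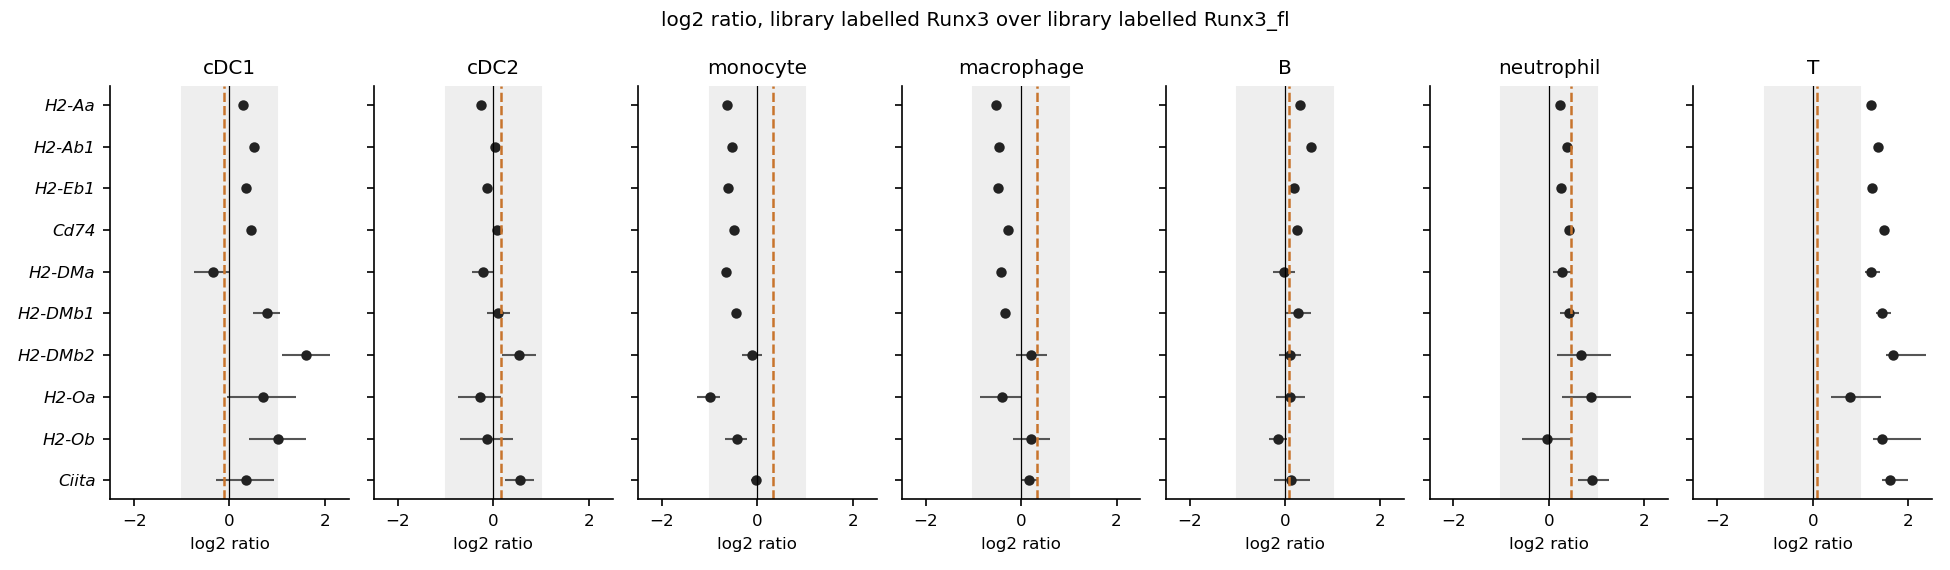
Log2 ratio of CPM plus 1 for each member, the library labelled Runx3 over the library labelled Runx3_fl, in 7 classes with 95% counting intervals; grey spans less than 2-fold, and the dashed line is the median gene of the class. Monocytes and macrophages lie mostly below 0, B cells mostly above it and T cells past 2-fold for 9 of 10 members.

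The proportions among members also differed between the libraries. Cd74 as a share of the UMIs of H2-Aa, H2-Ab1, H2-Eb1 and Cd74 was 40.3% (40.0 to 40.5) and 43.8% (43.6 to 44.1) in macrophages and 42.0% (41.8 to 42.2) and 43.9% (43.6 to 44.1) in monocytes, higher in the library labelled Runx3. The Cd74 share was also higher in that library in cDC2 (40.1% and 43.3%), neutrophils (41.2% and 43.4%) and T cells (40.1% and 43.6%). In cDC1 it was 40.4% and 41.3%, with overlapping intervals. Among the 7 classes it was highest in B cells, at 51.3% (50.4 to 52.2) and 49.4% (49.2 to 49.7), where it was lower in the library labelled Runx3. H2-Ab1 as a share of the I-A chain UMIs was 42.2% (40.7 to 43.7) and 46.2% (45.8 to 46.6) in B cells and 48.9% (48.5 to 49.3) and 49.8% (49.4 to 50.2) in macrophages. H2-Ab1 was thus the I-A chain that gained share in the library labelled Runx3 in both classes. Ciita UMIs relative to those of Ciita and the 4 members together were 0.312% (0.285 to 0.341) and 0.462% (0.429 to 0.496) in macrophages and 0.531% (0.410 to 0.676) and 0.473% (0.439 to 0.510) in B cells. Its share was higher in macrophages of the library labelled Runx3, where the 4 targets were lower and Ciita was not. The Ciita share was also higher in that library in monocytes (0.514% and 0.735%) and cDC2 (0.598% and 0.903%). The same held for neutrophils (0.502% and 0.751%) and T cells (0.473% and 0.605%), but not for cDC1 (0.410% and 0.394%).

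Of 43 listed genes of the wider pathway (proteases, transcription factors, interferon-gamma receptors, turnover and costimulation), 38 were in the matrices. In macrophages 4 of 38 passed 2-fold upward and 3 downward, against 15.8% and 2.49% of all genes. Those higher in the library labelled Runx3 were Lgmn, a lysosomal protease, at 1.34 (406 and 1031 CPM), Ifngr2, a chain of the interferon-gamma receptor, at 1.03 (56.4 and 116 CPM), and the transcription factor genes Irf1, at 1.02 (144 and 293 CPM), and Irf4, at 1.10 (13.7 and 30.6 CPM). Those lower were Sppl2a, a protease of the last invariant chain fragment, at -1.07 (345 and 163 CPM), Jak2, a kinase of the interferon-gamma receptor, at -1.18 (677 and 299 CPM), and Cd40, a costimulatory receptor, at -1.14 (396 and 179.8 CPM). By role, those past 2-fold were 2 of 14 genes of class II transcription, 1 of 3 of costimulation, 2 of 4 of interferon-gamma input, 2 of 10 of lysosomal processing and 0 of 6 of surface turnover and inhibition. The list had a median of 0.22 in macrophages against 0.33 over all genes. Ctss, the main protease of invariant chain in these cells, was at 0.19 (1811 and 2067 CPM) and Rfx5, of the complex on the X box, at 0.12 (5.38 and 5.92 CPM), neither past 2-fold. In the other classes the shares of all genes past 2-fold upward and downward stand beside the pathway counts. In dendritic cells, 4 of 35 genes passed upward and 4 downward in cDC1 (all genes 9.74% and 17.3%) and 3 of 35 genes passed upward and 6 downward in cDC2 (all genes 12.2% and 5.76%). Further, 2 of 38 genes passed upward and 0 downward in monocytes (all genes 14.2% and 1.65%) and 6 of 38 genes passed upward and 0 downward in B cells (all genes 11.5% and 1.75%). Last, 5 of 38 genes passed upward and 2 downward in neutrophils (all genes 22.1% and 5.64%) and 14 of 38 genes passed upward and 2 downward in T cells (all genes 13.7% and 6.5%).

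The genes whose levels over the 14 values were most like the mean member profile, among 5747 genes with at least 50 CPM in one of them, were Cd83 (Pearson's r 0.962), Ildr1 (0.953), Kynu (0.948), Cd2ap (0.940), Cd86 (0.934), Tspan13 (0.924), Rnase6 (0.920), Napsa (0.919), Gpd2 (0.918) and Gm20513 (0.915). Cd83 limits the removal of class II from the surface and Cd86 is a costimulatory ligand. All 10 were lowest in T cells. Gm20513 lies antisense to H2-Eb1, which it overlaps over 2204 bases, and H2-DMa, H2-Oa and Ciita overlap Brd2, BC051537 and Dexi on opposite strands, so these pairs could exchange reads if strand was not used in counting.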

How the data were processed

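Each library of the series, with 1 library per group, was a 10x 3′ single-cell library, and the deposited matrices held UMI counts per gene and cell. The authors made these counts with Cell Ranger (7.1.0 per the file headers) on mm10 and used Seurat 4 for later steps. Whether intronic reads or strand were used is not given in the sources used here. Positions came from GENCODE M21 and promoters from RefSeq GRCm38.p6. Cells with 200 to 6000 genes and at most 15% mitochondrial UMIs were kept, doublets being limited by the upper bound alone. Marker lists set a lineage and a gate gene of at least 1 UMI set the class, with phagocytes that passed several gates handled as described above. Summed counts were scaled to CPM with exact Poisson intervals, shares had exact Clopper-Pearson intervals, and log2 ratios used a pseudocount of 1 CPM with exact conditional intervals. All intervals are 95% ones for counting error alone. No test was possible. Background shares used genes with at least 20 UMIs over both libraries in a class. Scripts used Python 3.11.15, numpy 2.4.6, scipy 1.17.1 and Biopython 1.88 and were tested on simulated data. All 10 members were named. Pathway genes were named where past 2-fold in macrophages (Ctss and Rfx5 were added after their values were seen), and 10 genes of like pattern by Pearson's r. Members and lists were chosen with earlier results of these data known. Alternatives changed the gate, the cell filter, second-lineage cells, weighting, depth, totals, background, pseudocount and centring.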

Additional observations from a re-analysis of the deposited data

Results flagged for a closer look

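The log2 ratios between the libraries (the library labelled Runx3 over the library labelled Runx3_fl) had opposite signs in macrophages and B cells for 5 members, each with a counting interval on 1 side of 0. They were -0.52 and 0.30 for H2-Aa, -0.47 and 0.54 for H2-Ab1, and -0.49 and 0.20 for H2-Eb1. Cd74 had -0.28 and 0.24, and H2-DMb1 had -0.33 and 0.28. The opposite sign of H2-DMb1 was not kept under all alternatives. Without second-lineage cells it was at 125 and 116 CPM in B cells, and its lowest B-cell ratio was -0.32. In B cells the ratios of H2-Aa, H2-Ab1, H2-Eb1 and Cd74 stayed above 0 under each alternative. With 1 library per group the difference between the classes was not tested.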

How the results depend on the processing

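No paired analysis was possible because each group has 1 library, and leaving out a replicate would leave a group empty. Over the alternatives the sign of the 70 member ratios was kept in 38 with the gate gene alone, 65 with a gate of 2 UMIs, 69 with no filter on cells, 60 without second-lineage cells, 66 with per-cell means, 63 after thinning, 58 with the median gene set to 0, and all 70 with members left out of the total or a pseudocount of 10 CPM. With the neutrophil level subtracted, 43 of 60 kept their sign, and the 10 in T cells had no level left.

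The number of members past 2-fold became, with the gate gene alone, 0 in cDC1, 2 in monocytes, 1 in macrophages and 10 in B cells, and the ratios of H2-DMb2 and H2-Ob in cDC1 turned to -0.0091 and -0.093. A gate of 2 UMIs gave 0 in cDC1 and 2 in neutrophils, and no filter on cells gave 1 in cDC1 and 1 in monocytes. Neutrophils had 9 without second-lineage cells, 9 with per-cell means and 9 after thinning, while per-cell means gave 1 in cDC1 and thinning 1 in monocytes. Subtracting the neutrophil level gave 6 in monocytes, 2 in macrophages, 1 in B cells and, with no level left, 0 in T cells. A pseudocount of 10 CPM gave 1 in cDC1, and setting the median gene to 0 gave 1 in monocytes. For these changes the cause was not tested.

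The fold of summed member CPM of macrophages over T cells was 11.9 (11.8 to 12.04) for the library labelled Runx3_fl, whereas the library labelled Runx3 had 3.50 (3.46 to 3.55). In the order macrophages over B and over T cells in the library labelled Runx3_fl, then the same in the library labelled Runx3, the folds were 6.26, 7.60, 1.40 and 2.33 with the gate gene alone, 2.10, 12.4, 1.36 and 3.63 with a gate of 2 UMIs, 1.94, 17.4, 1.25 and 5.26 with per-cell means and 1.93, 17.01, 1.25 and 5.52 after thinning. With no filter on cells the last 3 were 9.62, 1.26 and 3.18, and without second-lineage cells they were 126, 1.44 and 23.1. The folds over T cells were 12.2 and 3.55 with members left out of the total. Those over B cells were 3.08 and 1.57 with the neutrophil level subtracted, which gives no value over T cells or for neutrophils. Thinned to 1000 UMIs, 105 of 140 shares of cells with a UMI lay outside the interval at 2000. Macrophages stayed above B and T cells under each of these alternatives.

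Depth limits the rarer members most: H2-DMb2, H2-Oa, H2-Ob and Ciita rest on 19 to 41 UMIs in the 12 cDC1 of the library labelled Runx3.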

Other observations

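Members were also measured in classes outside the 7 described. In Ccr7+ dendritic cells (102 and 12 cells), which carry antigen to lymph nodes, the 10 members summed to 18922 and 18748 CPM. The H2-M genes made up 1.93% (1.75 to 2.11) and 1.32% (0.919 to 1.85) of the UMIs of H2-M, the groove chains and Cd74 there, against 3.17% and 3.34% in cDC2 and 3.36% and 3.48% in macrophages. H2-DMb2 took 56.3% (50.05 to 62.4) and 25% (5.49 to 57.2) of the pair H2-DMb1 and H2-DMb2, the second value from 12 cells.

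Plasma cells (358 and 189 cells), which stop presenting antigen as they mature, had 1984 and 4641 CPM over the 10 members. Cd74 made up 57.9% (57.2 to 58.7) and 60.1% (59.4 to 60.9) of the UMIs of the groove chains and Cd74 in them, against 51.3% and 49.4% in B cells. NK cells (1364 and 107 cells) had 1474 and 2163 CPM over the 10 members.

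In macrophages divided by a UMI of Mrc1, a receptor of resident macrophages, the members summed to 25520.3 and 21620.5 CPM with Mrc1 and to 23921 and 16157 CPM without it. Divided by Nos2, they summed to 24164 and 18525 CPM with Nos2 and to 24302 and 18343 CPM without it.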
